A study of Mus musculus with 2 samples.

Results

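The genes described here are 7 members of the small heat shock protein family (Hspb1, Hspb2, Hspb3, Hspb6, Hspb7, Hspb8 and Cryab) and the co-chaperone gene Bag3. They were taken by symbol, through the gene identifiers paired with symbols in the deposited transcript tables, and the 8 genes are 8 of 55536 annotated genes. The muscle was gastrocnemius, in the calf, from 36-day-old females of B6CASTF1/J (B6Cast F1), mice that carry 1 genome copy from a laboratory strain and 1 from a castaneus strain. Total RNA (300 ng per library) with synthetic spike-in RNAs was sequenced in 1 group of 2 libraries, replicate 1 and replicate 2, and the labels name no treatment. The labels number both as biological replicates but name the same donor entry for both, and whether 2 animals were used is not stated, so their differences may in part be technical. No condition was compared, and no p-value is given.

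Small heat shock proteins are chaperones that hold unfolding proteins in a soluble state without using ATP, and they assemble into oligomers through a shared alpha-crystallin domain. In striated muscle they bind the Z-disc, desmin filaments and the titin spring, where stretch unfolds proteins. Bag3 joins Hspb8 to Hsp70 chaperones and passes damaged Z-disc proteins such as filamin C to selective autophagy, and mutations in Bag3, Hspb8 and Cryab cause myopathies.

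All 8 genes were detected in both libraries, at or above 1 TPM (transcripts scaled to a fixed total and corrected for gene length). The libraries held 37735687 and 40656175 estimated counts, with 10828 genes detected in both. Between the libraries the family split. Hspb7 had 15.96 TPM in replicate 1 and 143.5 in replicate 2, Hspb6 at 198 and 589 TPM, and Cryab at 219 and 425 TPM. Hspb1, Hspb2, Hspb3 and Hspb8 differed by at most 1.21-fold after scaling by TMM (trimmed mean of M values, which assumes that most genes do not differ). Bag3 lay between, at 35.4 and 51.6 TPM.

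The libraries also differed in markers of fibre type and of other cells. All 15 slow fibre genes on a list of such genes were over 2-fold higher in replicate 2, with a median log2 ratio of 7.29, and their summed level was 30.3 TPM in replicate 1 and 3363 TPM in replicate 2. Myh7, the slow myosin heavy chain, was at 0.24 and 472 TPM, and the slow light chains Myl2 and Myl3 were at 0.36 and 666 TPM and at 0.08 and 465 TPM. The 15 fast fibre genes had a median log2 ratio of −0.41, with sums of 121111 and 88732 TPM, but 2 of them went the other way: Myh1, the 2X myosin, at 132 and 1224 TPM, and Myh2, the 2A myosin, named after its values were seen, at 147 and 728 TPM. Mitochondrial genes took 9.39% and 17.5% of counts. Fat cell markers (7 of 8 over 2-fold higher in replicate 1, sums of 371 and 114 TPM), nerve and Schwann cell markers (7 of the 8 that average at least 10 counts, sums of 134 and 45.1 TPM) and red blood cell markers (5 of 5 such genes, sums of 2445 and 425 TPM) were higher in replicate 1. Among lymphocyte markers, 4 of 5 such genes were over 2-fold higher in replicate 2, with sums of 42.6 and 55.9 TPM. Of the 9996 genes averaging at least 100 counts, 2.09% were over 2-fold higher in replicate 2 and 1.21% in replicate 1. The fibre and marker lists use the lower cut of 10 counts, for which no share by direction is given here. Smooth muscle and pericyte markers had sums of 139 and 141 TPM and a median log2 ratio of −0.02, over members that differed in direction, from Tagln at 18.3 and 9.01 TPM and Acta2 at 21.6 and 15.1 TPM to Rgs5 at 47.8 and 65.3 TPM and Cspg4 at 1.62 and 3.22 TPM. The summed level of endothelial markers was 89.5 and 95.5 TPM, that of fibroblast and tendon markers 705 and 750.4 TPM and that of macrophage markers 28.3 and 30.8 TPM. Single genes differed more than these sums. Among genes averaging at least 10 counts, log2 ratios ran from −0.21 to 0.95 for endothelial and from −0.04 to 0.49 for macrophage markers. For fibroblast and tendon markers they ran from −0.33 to 0.77, with a median of 0.31. The part of fibre type and of these other cells in the members' ratios was not tested. In bulk tissue, fewer cells of a type and less RNA per cell cannot be told apart.

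To show what separates the transcripts that both quantifications had to divide, 3 stretches are given first, from the GENCODE M21 transcript sequences (mm10, plus strand). In Cryab-204, annotated as a retained intron, capitals mark 117 bases that are intron in the coding transcripts and lie in no other Cryab transcript, at chr9:50754395-50754511, followed by the start of the shared exon. In Hspb6-201, the coding transcript, and Hspb6-202, a non-coding one, capitals mark the last 40 bases of the first exon (chr7:30553493-30553532 and chr7:30552688-30552727), and lower case marks the first 12 bases of the exon that both share, from chr7:30554262.
Cryab-204: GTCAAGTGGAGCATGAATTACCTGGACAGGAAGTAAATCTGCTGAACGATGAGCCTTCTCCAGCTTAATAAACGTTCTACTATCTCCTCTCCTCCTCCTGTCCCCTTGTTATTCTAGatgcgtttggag
Hspb6-201: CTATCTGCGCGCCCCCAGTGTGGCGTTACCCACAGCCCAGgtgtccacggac
Hspb6-202: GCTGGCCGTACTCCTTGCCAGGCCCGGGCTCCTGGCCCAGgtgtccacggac
The capitals of both Hspb6 stretches end at a splice junction, and the 12 bases after it are the same letters. Hspb6-202 has no exon base of its own, because Hspb6-203 covers its first exon, so that junction is what sets it apart.

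A further 3 stretches lie before the start sites of Hspb7 and Hspb6, which had the largest ratios between the libraries, and of Hspb1, which by TMM had the smallest. They are RefSeq promoters (GRCm38.p6, plus strand), cut where the first coding transcript of GENCODE begins: Hspb7 at chr4:141420529-141420778, Hspb6 at chr7:30553051-30553267 and Hspb1 at chr5:135887669-135887918. Capitals mark pairs of inverted heat shock units, the letters GAANNTTC or TTCNNGAA, which read the same on both strands.
Hspb7: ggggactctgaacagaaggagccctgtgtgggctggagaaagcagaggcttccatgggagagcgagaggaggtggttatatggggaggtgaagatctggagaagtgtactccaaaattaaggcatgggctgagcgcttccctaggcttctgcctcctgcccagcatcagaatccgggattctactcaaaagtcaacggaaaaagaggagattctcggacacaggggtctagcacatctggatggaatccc
Hspb6: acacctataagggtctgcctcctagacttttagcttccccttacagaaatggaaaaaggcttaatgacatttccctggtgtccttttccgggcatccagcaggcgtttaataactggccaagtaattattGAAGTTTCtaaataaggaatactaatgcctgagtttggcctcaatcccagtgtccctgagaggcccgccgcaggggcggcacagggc
Hspb1: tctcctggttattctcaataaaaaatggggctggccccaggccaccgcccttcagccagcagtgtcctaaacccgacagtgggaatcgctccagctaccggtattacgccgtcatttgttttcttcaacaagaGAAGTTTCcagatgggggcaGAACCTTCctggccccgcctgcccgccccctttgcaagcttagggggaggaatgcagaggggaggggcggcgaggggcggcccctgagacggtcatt
Promoters were found for 6 of the 8 members, in 7 windows of 250 bases before and 50 bases after the start. Hspb2 and Cryab had no promoter in the set used and were not searched. A pair of inverted units was present in 5 of the 7 windows, and in 15.1% of 32817 RefSeq promoters of this length. Hspb1 held GAAGTTTC from 117 to 110 bases and GAACCTTC from 97 to 90 bases before its start. Hspb6 held GAAGTTTC from 120 to 113 bases and Hspb3 GAATTTTC from 224 to 217 bases before theirs. The matches of Hspb8 (bases 2 to 9) and Bag3 (bases 42 to 49) lay after the start. These positions count from the RefSeq start sites. The RefSeq start of this Hspb6 window, chr7:30553301, lies after the end of its printed stretch at chr7:30553267. Neither the Hspb7 window nor the more distal of the Hspb6 windows held these letters. None of the 6 searched members held 3 alternating units (GAANNTTC followed by NNGAA, searched on both strands), which 0.603% of all promoters did. A TATAAA box, searched on both strands, was present in the windows of Hspb3 and Hspb6 and in 13.6% of all promoters, and overlapped none of these pairs. The TATAAA of Hspb6, from 29 to 24 bases before the RefSeq start, lies after the end of the printed stretch. A match of letters is a description and not a binding site.

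Hspb6 (ENSMUSG00000036854.14, chr7:30552178-30555443, plus strand) encodes Hsp20, a phosphorylated small heat shock protein that binds actin-associated partners in striated and smooth muscle. Replicate 1 held 7631 estimated counts of it (198 TPM) and replicate 2 held 24006 (589 TPM), so replicate 2 was the high library. The ratio of TMM-scaled counts was 3.00, with an exact 95% counting interval from 2.92 to 3.08, and the log2 ratio was 1.58. This interval covers counting error only. Of the genes averaging at least 100 counts, 1.05% had a ratio at least as high. At a mean of 394 ± 276 TPM (SD, n = 2) Hspb6 ranked 144 of 10828 detected genes.

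Cryab (ENSMUSG00000032060.10, chr9:50751325-50756636, plus strand) encodes alpha-B crystallin, the desmin-binding member of the family. Replicate 1 held 4285 counts (219 TPM) and replicate 2 held 8614 (425 TPM). The ratio was 1.92 (interval from 1.85 to 1.99) and the log2 ratio 0.94, just under the 2-fold mark, and 2.37% of genes were at least as high. With a mean of 322 ± 145 TPM it ranked 175 of the detected genes. The ranges of Hspb6 and Cryab overlapped, and Cryab was the higher in replicate 1 and Hspb6 in replicate 2.

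Hspb7 (ENSMUSG00000006221.7, chr4:141420779-141425311, plus strand) encodes cvHsp, a member first described in heart and vessels that binds filamin C. It held 1301 counts (15.96 TPM), the lowest TPM of the family, in replicate 1 and 12359 (143.5 TPM), the third highest, in replicate 2. The ratio was 9.06 (interval from 8.55 to 9.60), and the log2 ratio 3.18. Only 31 other genes of the 9996 averaging at least 100 counts were at least as high. Of these, 12 were on the slow fibre list, of whose 15 genes 13 had that count. All 13 were at least as high as Hspb6, Cryab and Bag3 as well, among 104, 236 and 634 such genes. The overlap with this list was thus not particular to Hspb7. Of the 10 heart muscle markers, Nppb, Myl7 and Nkx2-5 had 0 counts in both libraries. Nppa, Tnni3 and Mybpc3 had 0 counts in replicate 1 and 1, 5 and 1 in replicate 2, and Ryr2, named after its values were seen, had 16 and 17. Tnnt2 was at 2.42 and 1.15 TPM and Myl4 at 3.51 and 2.50 TPM. The exception was Myh6, at 0.17 and 96.6 TPM, so the summed level of the list was 6.20 and 100.6 TPM. Myh6 is a near-identical neighbour of Myh7, and reads can be split between both. Its 4270 counts in replicate 2 had a deposited posterior SD of 31.6, and the table quantified directly from reads gave 50.1 TPM there. The part of shared reads was not tested.

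Hspb1 (ENSMUSG00000004951.10, chr5:135887919-135889563, plus strand) encodes Hsp27, which guards the actin cytoskeleton. It had 114 TPM (2804 counts) and 108 TPM (2811 counts), and by TMM no other member lay as close between the libraries. The log2 ratio was −0.07, and the interval of the ratio, from 0.907 to 1.01, included equal levels. It was also the only member with reads of uncertain assignment at the gene level, with a deposited posterior SD of 28.5 counts in replicate 1 and 23.5 in replicate 2.

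Hspb8 (ENSMUSG00000041548.4, chr5:116408491-116422864, minus strand) encodes Hsp22, the small heat shock partner of Bag3. It had 100.8 TPM (5269 counts) in replicate 1 and 83.1 TPM (4573 counts) in replicate 2, a ratio of 0.828 with an interval from 0.795 to 0.861. Hspb2 (ENSMUSG00000038086.4, chr9:50751078-50752354, minus strand), known as the myotonic dystrophy kinase binding protein, had 55.5 TPM (1104 counts) and 46.4 TPM (956 counts). Its ratio was 0.826 (interval from 0.756 to 0.901). Hspb3 (ENSMUSG00000051456.4, chr13:113662896-113663676, minus strand), a single-exon gene whose protein pairs with Hspb2 in muscle, had 18.7 TPM (390 counts) and 15.8 TPM (347 counts), with a ratio of 0.848 (interval from 0.732 to 0.983). The log2 ratios of these were −0.27 for Hspb8, −0.28 for Hspb2 and −0.24 for Hspb3. By the spike-in totals in place of TMM, which add 0.39 to the median of all genes, they became 0.12, 0.12 and 0.15, and that of Hspb1 became 0.33, so the direction of these genes depended on the scaling. Such differences were common: 30.0% of genes averaging at least 100 counts lay at least as far from 0 as Hspb8, 29.6% as Hspb2 and 35.6% as Hspb3.

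Bag3 (ENSMUSG00000030847.8, chr7:128523616-128546981, plus strand) had 35.4 TPM (2660 counts) and 51.6 TPM (4095 counts). The ratio was 1.47 (interval from 1.40 to 1.54) and the log2 ratio 0.55, and 6.35% of genes were at least as high. Hspb8 mRNA stood at 2.85 times the TPM of Bag3 in replicate 1 and 1.61 times in replicate 2. The reads-based table gave 3.08 and 1.71 times.

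**Figure D1:**
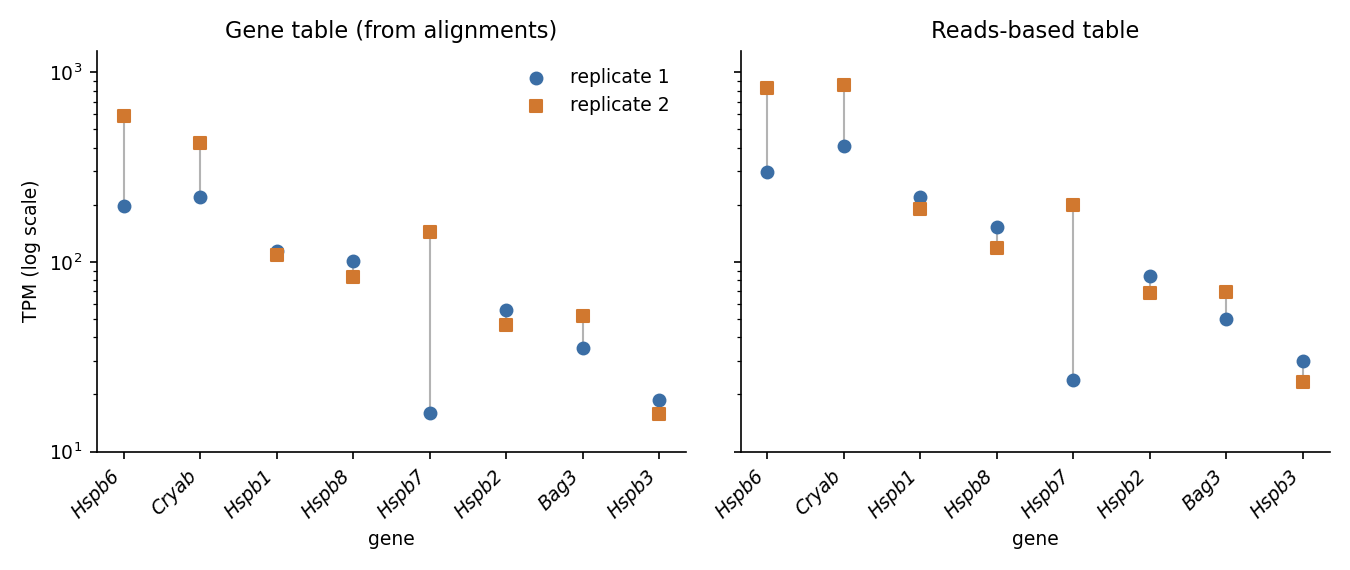
TPM of the 8 genes (log axis) in replicate 1 (circles) and replicate 2 (squares), from the gene table at left and the table quantified directly from reads at right, with a grey line joining the libraries. Hspb7, Hspb6 and Cryab have long lines in both tables, from 15.96 to 143.5 TPM for Hspb7 in the gene table, and Hspb1 has the shortest.

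By mean TPM in the gene table the order was Hspb6, Cryab, Hspb1 (111 ± 4.10 TPM), Hspb8 (92.0 ± 12.5 TPM), Hspb7 (79.8 ± 90.2 TPM), Hspb2 (50.9 ± 6.45 TPM), Bag3 (43.5 ± 11.4 TPM) and Hspb3 (17.3 ± 2.09 TPM), each with SD and n = 2. The values of Hspb2 and Bag3 overlapped, and those of Hspb7 spanned Hspb1, Hspb8, Hspb2 and Bag3 and overlapped Hspb3. The values of Cryab, Hspb1, Hspb8, Hspb2 and Hspb3 did not overlap each other. The reads-based table gave TPM from 1.41 to 1.92 times as high in replicate 1 and from 1.35 to 2.01 times in replicate 2, where the median protein-coding gene in replicate 1 was 1.53 times as high. It gave the same order in replicate 1. In replicate 2 it placed Cryab (854 TPM) above Hspb6 (828 TPM).

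Summed over the 8 genes the level was 758 TPM in replicate 1 and 1462 TPM in replicate 2. Hspb6, Cryab and Hspb7 made up 57.2% and 79.1% of that sum. The other 5 genes together were at 325 and 305 TPM. Hspb6 took 26.1% and 40.3%, Cryab 28.9% and 29.0%, and Hspb7 2.10% and 9.82%, while Hspb1 took 15.1% and 7.41% and Hspb8 13.3% and 5.68%. The share of Hspb1 differed between the libraries by more than its TPM did.

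Of the 8 genes, 2 (Hspb6 and Hspb7) were over 2-fold higher in replicate 2, against a background of 2.09% of the 9996 genes averaging at least 100 counts. None was over 2-fold higher in replicate 1, where the background was 1.21%. At 1.5-fold, 3 genes were higher in replicate 2, with Cryab added, and the background was 5.63%. The median log2 ratio of the members was 0.24, against −0.01 over all these genes, and 4 of 8 members lay within 0.5 of 0, against 87.8% of all. The spread of single genes between the libraries, as edgeR's common biological coefficient of variation, was 0.220.

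**Figure D2:**
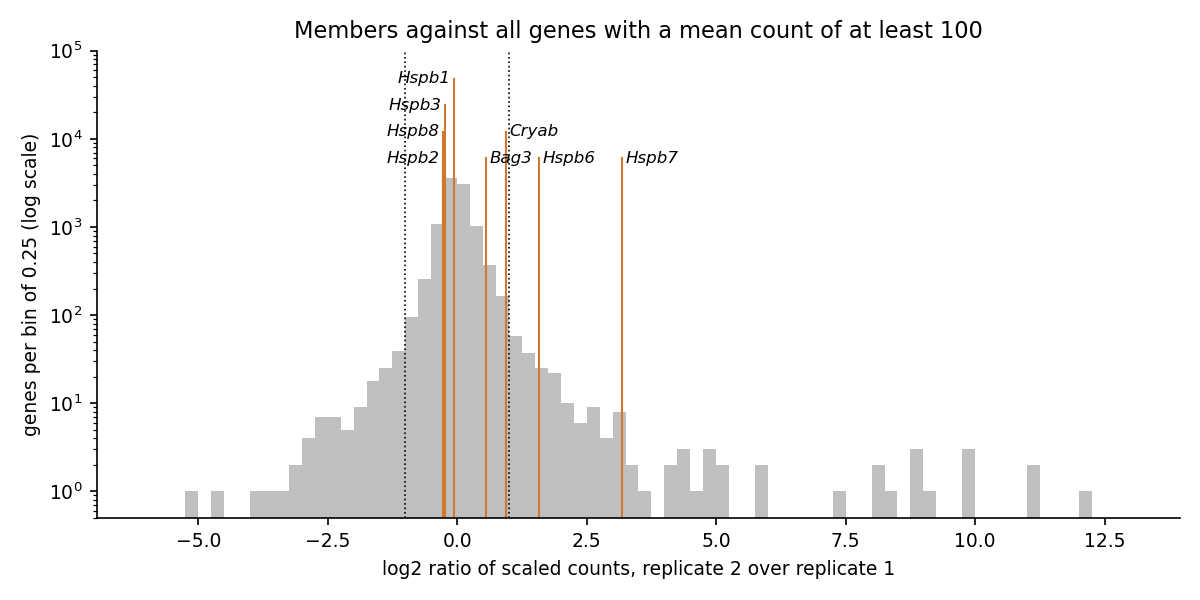
Number of genes (log axis, bins of 0.25) by log2 ratio of scaled counts, replicate 2 over replicate 1, for the 9996 genes averaging at least 100 counts, with an orange line for each member and dotted lines at 2-fold. Hspb7 at 3.18 and Hspb6 at 1.58 lie beyond the upper dotted line, Cryab at 0.94 lies just inside it, and Hspb1, Hspb2, Hspb3 and Hspb8 lie in the central peak.

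The genes nearest to each member by level were found as the smallest Euclidean distance of log2(TPM + 1) over the 2 libraries, among protein-coding genes. Hspb7 had no close match. The nearest were Atp2a2, the slow and cardiac calcium pump, at 12.2 and 215 TPM (distance 0.68), and Lmod2, an actin filament nucleator, at 9.54 and 102 TPM (distance 0.84). For Hspb6 they were Ckmt2, the mitochondrial creatine kinase of striated muscle, at 184 and 489.9 TPM (distance 0.29), and Cryab (distance 0.49). For Cryab they were Cox7a1, the muscle isoform of a cytochrome oxidase subunit, at 215 and 383 TPM (distance 0.15), and Nrap, a thin filament assembly protein, at 199.7 and 350.2 TPM (distance 0.31). Bag3 was within a distance of 0.01 of Lmod3, a leiomodin of skeletal muscle, at 35.3 and 51.7 TPM, followed by Acot13 at 36.2 and 51.1 TPM. The members with a small ratio had close neighbours among genes of many functions: Fsd2 and Sod1 for Hspb1, Dpp8 and Ddb1 for Hspb2, Sos2 and Sdf2 for Hspb3, and Fhl3 and Oaz2 for Hspb8. The distance of these 8 ranged from 0.0041 to 0.076. With 2 libraries, a near gene shares only similar TPM values. Its ratio of TMM-scaled counts can differ, as for Sos2 at a log2 ratio of 0.001, against −0.24 for Hspb3.

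The members have 19 annotated transcripts, and Hspb3, Hspb7 and Bag3 have 1 each. For Hspb1 and Hspb8 one transcript carried the gene: Hspb1-201 held 99.8% and 100% of the gene's TPM in the alignment-based table, and Hspb8-201 held 99.5% and 99.0%. In the reads-based table they held 99.7% and 99.9%, and 100% in both libraries.

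Hspb6 was divided differently by the 2 tables. By alignment, the coding transcript Hspb6-201 held 98.1% of the gene's TPM in replicate 1 and 99.5% in replicate 2, and Hspb6-202 held 106 counts (posterior SD 45.97) and 94.8 counts (posterior SD 43.9). In the reads-based table Hspb6-202 held 3133 and 9425 counts, which left Hspb6-201 with 55.2% and 56.7% of TPM. The ratio between the libraries did not depend on this, because the gene as a whole had a log2 ratio of 1.58 by alignment and 1.56 in the reads-based table. The deposited values alone do not show which division is right. The transcripts differ in their first exons and in the junctions printed above.

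Cryab-205, a coding transcript, led Cryab by alignment, with 44.6% of TPM in replicate 1 and 49.0% in replicate 2. Cryab-204, whose retained stretch is printed above, held 42.7% and 44.8%, at 1390 counts (posterior SD 57.2) and 2981 counts (posterior SD 86.3). Cryab-201 held 10.01% and 4.95%. In the reads-based table Cryab-204 held 29.6% and 35.3%, Cryab-205 25.1% and 26.9%, and Cryab-201 26.5% and 15.9%. Cryab-202 there had 230 counts in replicate 1 and 1486 in replicate 2, against 50.6 and 46.5 by alignment, and Cryab-203 had 348 and 0.33 counts, against 56.6 and 65.3. Neither Cryab-203 nor Cryab-205 has an exon base of its own, so the division among the coding transcripts is uncertain.

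The retained-intron transcript counts toward the gene's TPM. Without it, the 5 coding transcripts of Cryab summed to 126 TPM in replicate 1 and 234 TPM in replicate 2 by alignment, below Hspb6-201 (195 and 586 TPM) in both libraries. In the reads-based table they summed to 286 and 553 TPM, above Hspb6-201 (165 and 469.7 TPM) in both. Which of these genes had the most coding mRNA therefore depended on the table. On TPM by alignment, Cryab-204 and Cryab-205 had log2 ratios of 1.02 and 1.09 between the libraries, Cryab-201 had −0.07 and Cryab-202 −0.20. In the reads-based table these were 1.32, 1.17, 0.33 and 2.55, so the direction of Cryab-201 and Cryab-202 depended on the table.

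**Figure D3:**
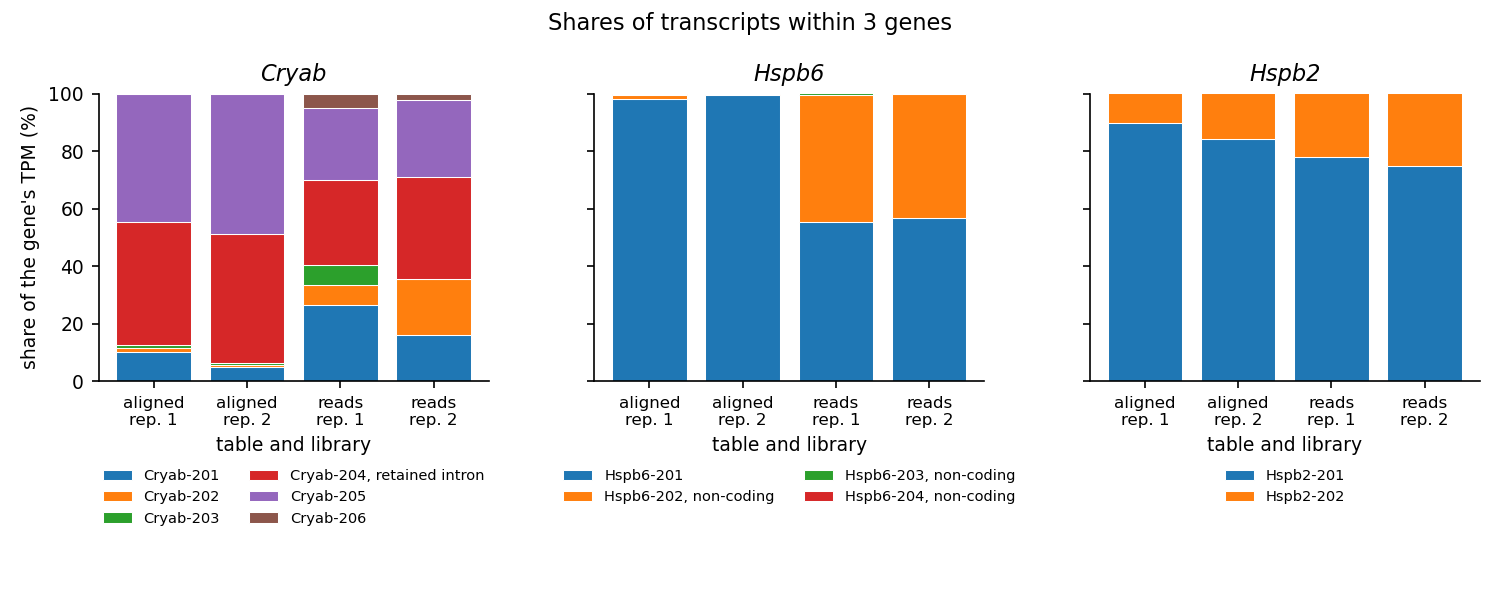
Share of each annotated transcript in its gene's TPM (percent, stacked bars) for Cryab, Hspb6 and Hspb2, in the alignment-based and the reads-based tables and both libraries. Hspb6-202 takes almost nothing by alignment and over 40% in the reads-based table, and the division of Cryab among its coding transcripts differs between the tables.

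Hspb2 and Cryab form a head-to-head pair. Hspb2-201 starts at position 50752293 on the minus strand of chromosome 9 and Cryab-201 at 50752907 on the plus strand, with 613 bases between them. The annotated genes overlap by 1030 bases, since Cryab-206 begins inside Hspb2, and 252 of its exon bases lie in Hspb2 exons. Whether counting used strand is not given in the sources used here. By alignment, the deposited posterior SD at the gene level was 0 counts for Hspb2 and for Cryab in both libraries. That table thus showed no uncertain assignment between the 2 genes. How the reads-based table assigned reads from those bases was not tested. Cryab-206 held 17.7 and 0 counts by alignment, and 385 and 397 in the reads-based table, where Hspb2 had 812 and 714 counts against 1104 and 956 by alignment. Cryab stood at 3.96 times the TPM of Hspb2 in replicate 1 and 9.16 times in replicate 2. Hspb2-201 held 89.9% and 84.3% of the TPM of Hspb2 by alignment, and 77.8% and 74.9% in the reads-based table.

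Among other small heat shock genes, Cryaa, the lens alpha-A crystallin, and Hspb9, a testis gene, had 0 counts in both libraries, which allows up to 0.0795 CPM (counts scaled to the library total) in replicate 1 and 0.0738 in replicate 2. Odf1, a sperm tail gene, had 0 and 1 count. Hspb11, an intraflagellar transport subunit named for its weak likeness to the family, was at 4.16 and 4.07 TPM.

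The partners of Bag3 differed less between the libraries than Hspb7, Hspb6 or Cryab, with log2 ratios from −0.25 to 0.43 over 9 of 9 detected genes and a median of 0.05. Hspa8, the constitutive Hsp70, was at 489 and 405 TPM, and the ubiquitin ligase Stub1 (CHIP) at 33.1 and 33.7 TPM. Flnc, filamin C, the main client, was at 124 and 172 TPM and had the highest ratio, and Synpo2, which links Bag3 to autophagosome formation, was at 76.5 and 103 TPM. The autophagy receptor Sqstm1 was at 191 and 165 TPM, Map1lc3a at 98.6 and 103 TPM, Map1lc3b at 58.9 and 61.8 TPM, Lamp2 at 24.5 and 26.1 TPM and Dnajb6, a J-domain partner, at 27.5 and 25.9 TPM. The 5 other genes of the BAG family had log2 ratios from −0.03 to 0.23. Bag6 (86.2 and 81.4 TPM) and Bag1 (73.9 and 80.3 TPM) stood above Bag3, and Bag2 (6.24 and 6.21 TPM), Bag5 (4.78 and 4.85 TPM) and Bag4 (1.60 and 1.64 TPM) well below it.

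Heat shock factors were close between the libraries, with Hsf1 at 19.9 and 19.1 TPM, Hsf2 at 10.8 and 11.1 TPM and Hsf4 at 2.99 and 2.21 TPM. Of 10 heat-inducible genes 2 were over 2-fold higher in replicate 2, against 2.09% of all genes averaging at least 100 counts. They were the Hsp70 genes Hspa1a (1.03 and 3.96 TPM) and Hspa1b (0.77 and 1.80 TPM). These are near-identical copies that share reads, and their summed counts were 154 and 524, which gave 3.24 as the ratio (interval from 2.71 to 3.91). Dnajb1, their J-domain partner, was at 1.55 and 2.27 TPM. The others lay within 0.5 of a log2 ratio of 0: Hsph1 at 21.7 and 18.4 TPM, Hsp90aa1 at 14.9 and 15.1 TPM, Hspd1 at 57.1 and 69.4 TPM, Hspe1 at 28.6 and 34.4 TPM, Dnaja1 at 15.9 and 12.5 TPM, Chordc1 at 20.1 and 18.3 TPM and Hspa8 as above.

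Across 9 chaperone and partner lists, 71 genes outside the members, 67 were detected and 67 had a mean count of at least 100. Of the latter, 57 (85.1%) lay within 0.5 of a log2 ratio of 0, against 87.8% of all genes. Of the same 67 genes, 3 were over 2-fold apart, all higher in replicate 2, where the share of all genes with that count was 2.09%. They were Hspa1a, Hspa1b and Hspa2, the last named after its value was seen. None of the 67 reached the ratio of Hspb7. In the Hsp70 list the lowest ratio was that of Hspa12a, at −0.60, and the abundant Hspa9 of mitochondria was at 87.9 and 126 TPM, Hspa5 of the endoplasmic reticulum at 65.2 and 70.7 TPM and Hspa4 at 29.3 and 32.3 TPM. The J-domain list (median −0.01) reached 0.85 with Dnaja4, at 12.4 and 22.4 TPM, and its abundant genes Dnajb5 and Dnaja2 were at 87.8 and 74.7 TPM and at 84.6 and 76.1 TPM. The Hsp90 list had a median of −0.05, with Hsp90ab1 at 370.5 and 339.6 TPM, the myosin chaperone Unc45b at 72.7 and 61.8 TPM and its partner Smyd1 at 163 and 132 TPM, and its lowest ratio was that of Fkbp5, a glucocorticoid-responsive co-chaperone, at 69.3 and 41.8 TPM. Chaperonins had a median of −0.12, from Cct5 at −0.27 to Hspd1 at 0.30, with Tcp1 at 70.8 and 67.4 TPM.

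**Figure D4:**
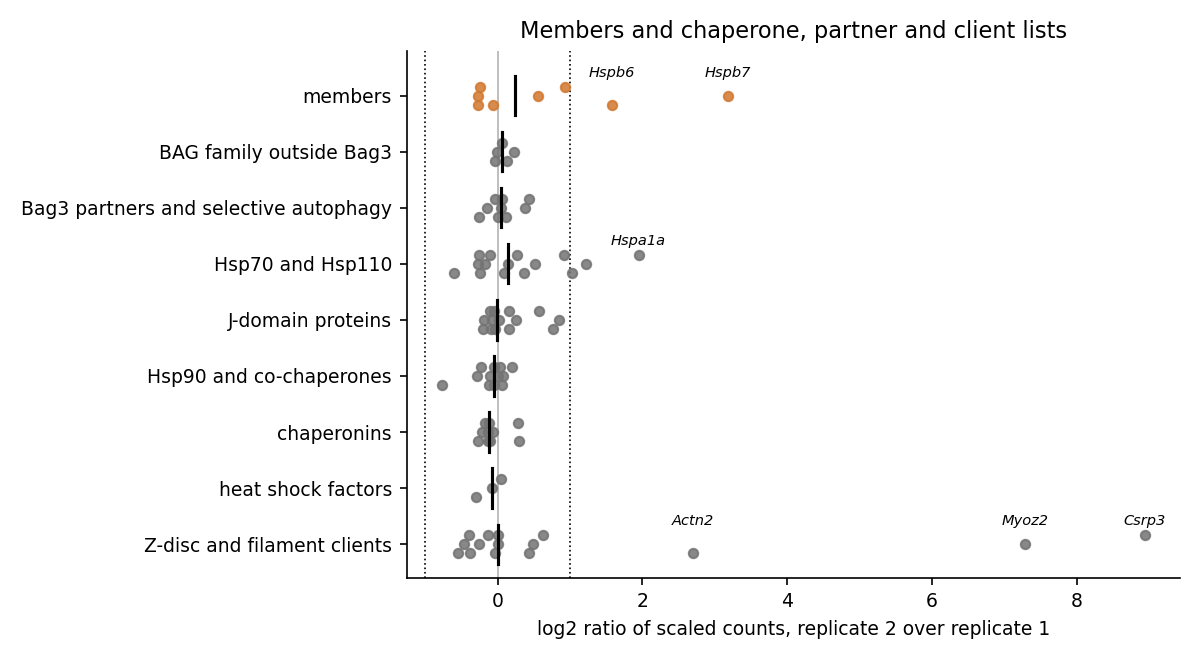
Log2 ratio of scaled counts, replicate 2 over replicate 1, for the 8 members (orange) and the genes of 8 lists that average at least 10 counts (grey), with black bars at the medians and dotted lines at 2-fold. The lists are of chaperones, partners, and Z-disc and filament genes listed as possible clients. Hspb7 and Hspb6 lie beyond the dotted line at 3.18 and 1.58, most chaperones and partners lie near 0, and Actn2, Myoz2 and Csrp3 stand apart on the Z-disc and filament list.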

How the data were processed

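Total RNA-seq of 2 gastrocnemius libraries (1 group) was analysed. For both libraries the authors deposited gene and transcript tables made from transcriptome alignments and a further transcript table made from the reads themselves, and the deposited descriptions name mm10 and GENCODE M21. The quantification program is not given in the sources used here. Values are deposited expected counts or estimated counts, not normalised, deposited TPM, the deposited percent of each transcript in its gene, and a posterior SD, which is per the file headers a score of uncertain assignment. How castaneus alleles affect alignment was not tested.

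The members and lists were chosen with earlier results of these data known. All 191 genes on 21 lists had a row. Counts were rounded and scaled by TMM in edgeR 4.0.16 (R 4.3.3) over 55536 genes, and the log2 ratio is replicate 2 over replicate 1 with a prior count of 0.5. DESeq2 1.42.0 gave alternative size factors. Genes averaging at least 100 counts form the background, list medians use genes averaging at least 10, and detection means 1 TPM in both libraries. Exact (Clopper-Pearson) 95% intervals were computed in scipy 1.17.1, and like the floor of 3 counts they cover counting error alone, since reads lacking molecular identifiers may be copies of 1 molecule. Ratios were tested on simulated counts that held counting error alone, so that test does not cover the spread between these libraries. The rule for named genes takes the members, their 2 nearest genes, up to 4 of the most abundant, the extreme genes and those at 0 counts of each list, and all genes of the small heat shock, BAG, Bag3 partner, heat shock factor and heat-inducible lists. Of the other lists and the markers the text prints only some of these, and genes outside the rule are marked as named after their values were seen. Spike-ins took 0.646% and 0.479% of counts. Alternatives covered scaling, pseudocount, filters, thresholds, the reads-based table and leaving out each library.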

Additional observations from a re-analysis of the deposited data

How the results depend on the processing

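With DESeq2 size factors, total gene counts, the ratio of TPM, the reads-based table or a pseudocount of 5, the median log2 ratio of the members stayed between 0.20 and 0.26, with 4 members higher in replicate 2 and 2 over 2-fold apart. Scaling by spike-in totals gave a median of 0.64, 8 members higher in replicate 2 and 3 over 2-fold apart, with Cryab at a log2 ratio of 1.33, and the number of all genes over 2-fold apart went from 330 to 585 (519 higher in replicate 2 and 66 in replicate 1, against 209 and 121); the cause was not tested. That number was 1159 for genes averaging at least 10 counts and 6717 with no filter, which test more genes. The mean summed TPM of the members, 1110, was 1809 in the reads-based table and 2635 when TPM was rescaled over protein-coding nuclear genes, and 758 or 1462 with 1 library left out. All 8 members were detected at 0.1, 1 and 10 TPM. Of the 71 other chaperone genes 68, 67 and 51 were. Among single genes, shares, list medians and counts of detected genes per list, 137 alternative values counted as unmoved and 40 as moved. None changed the sign of a ratio over 2-fold. Unmoved values stayed within their error, but no error is given here for the counts of detected genes. The 137 include shares with 1 library left out. With 2 libraries such values always lie within the SD of the mean, so they could not move. The share of Hspb7 counted as unmoved at 2.10% and at 9.82%, against a mean of 5.96%. Ratios need both libraries, so none could be computed with 1 left out.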

Other observations

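Over 15 listed Z-disc and filament genes, the median log2 ratio between the libraries was 0.00, with sums of 12819 and 12571 TPM. They were listed as possible clients of small heat shock proteins and Bag3, and binding was not tested for any of them here. The largest by level were Actn3 (4850 and 3330 TPM), the alpha-actinin of fast fibres, with the lowest ratio at −0.55, titin (Ttn, 2764 and 2935 TPM), its cap protein Tcap (1100.2 and 1687 TPM) and Myoz1 (1542 and 1214 TPM). Desmin (Des), named after its values were seen, was at 764.5 and 763.7 TPM, a log2 ratio of 0.00, while its partner Cryab had 0.94. Of these 15 genes, 3 were over 2-fold apart, all higher in replicate 2, where the share of all genes averaging at least 100 counts was 2.09%. They were Csrp3 at 0.13 and 71.2 TPM, Myoz2 at 1.31 and 202 TPM and Actn2 at 85.4 and 569 TPM, the last named after its values were seen. Csrp3 and Myoz2 also stand on the slow fibre list.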
